A study of Mus musculus with 12 samples.

Results

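Baiap2l2, Mamdc2, Dkk2, Atp6v0d2, Pianp, Lgi2, Trpm1, Hpse and Corin are 9 of the 55487 genes listed in a table of counts from cortical microglia of mice with a mutant App gene and of WT mice. They were picked from these same data because they were among the genes with the highest variance or the largest increase in the mutant strain, and much less has been written about them in microglia than about Trem2 or Apoe. Of the 15425 genes that passed the filter on low counts, all 9 among them, they held ranks 1 to 33 by the log2 fold change between the vehicle-treated strains. By the variance across libraries 8 of them held ranks 4 to 13, and Corin held rank 277. Those ranks describe the choice and are no result.

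The sequenced cells came from 12 male mice, 3 in each of 4 groups. WT mice and App NL-G-F mice (App mice for short) received intravenous PBS (veh) or rh Bri2 BRICHOS R221E at 10 mg/kg, 2 injections per week and 24 in all, over 12 weeks from the age of 9 months, and were then kept for 4 weeks without treatment. App NL-G-F is a knock-in in which the mouse App gene, under its own promoter, carries a humanized amyloid-β sequence with familial Alzheimer's disease mutations, so amyloid plaques form without overexpression of App. Rh Bri2 BRICHOS R221E is a recombinant human protein, a variant of the BRICHOS chaperone domain of Bri2. Microglia were taken from the papain-digested cerebral cortex with magnetic beads against CD11b, a surface protein that other myeloid cells share, and each library held the cells of 1 mouse.

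Microglia are the resident macrophages of the brain. Around amyloid plaques they lower part of their homeostatic programme and raise genes of lipid handling, lysosomes, adhesion and phagocytosis, a state known as disease-associated microglia and recognised by Cst7, Itgax, Spp1, Gpnmb and others. The 9 genes described here belong to no single pathway: 4 of the products are secreted or act on the extracellular matrix (Dkk2, Mamdc2, Lgi2, Hpse), 3 sit in the cell membrane (Pianp, Trpm1, Corin), and 2 act inside the cell, at the lysosome and the membrane skeleton (Atp6v0d2, Baiap2l2).

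Between 12433402 and 17889654 reads per library were counted on genes, and 3 counts, taken as the smallest detectable level, corresponded to 0.168 to 0.241 CPM, the counts of a gene scaled to the size of its library, a limit of counting error only. The 8 homeostatic microglia markers summed to 27747 to 30542 CPM in veh-treated WT mice and to 25005 to 26955 CPM in veh-treated App mice, and none of them was at 0. The 12 markers of disease-associated microglia summed to 4270 to 4842 and to 36254 to 42600 CPM. Other cells were present. The 8 astrocyte markers summed to 535 to 774 CPM in veh-treated WT, 572 to 841 in treated WT, 1480 to 4573 in veh-treated App and 732 to 1959 in treated App mice, with none at 0 in all libraries of a group. The 6 neutrophil markers and the 6 border macrophage markers were lower in veh-treated App mice, at 13.3 to 33.8 against 32.8 to 365.9 CPM and at 167 to 224 against 389 to 460 CPM. Of the homeostatic markers 6 were lower and 2 higher in veh-treated App than in WT mice by edgeR's test, and all 12 of the disease-associated ones were higher. Endothelial markers (5 of 6), neuron markers (3 of 6 tested), oligodendrocyte markers (2 of 6), mural markers (2 of 6), and B cell and fibroblast markers (1 of 5 each) were lower in part, 1 of 5 oligodendrocyte precursor markers was higher, and no T cell, choroid plexus or ependymal marker was called. The part of these cells in the levels of the 9 genes was not tested. The astrocyte covariate given with the relatives does not test it, since the summed astrocyte markers did not overlap between the veh-treated strains. In bulk libraries such as these, more cells of a type and more RNA per cell cannot be told apart.

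In WT microglia the 9 genes had low counts, and in App microglia each was counted in every library. Of the 54 values in WT libraries (9 genes in 6 libraries), 11 were 3 counts or fewer, 6 of these were 0, and the highest was 121. In App libraries the lowest value was 36 counts and the highest 4534. For 6 of the 9 genes the mean of the veh-treated WT mice was under 1 CPM. The mean levels in App mice ran from 2.61 CPM for Corin to 294.5 CPM for Mamdc2.

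**Figure D1:**
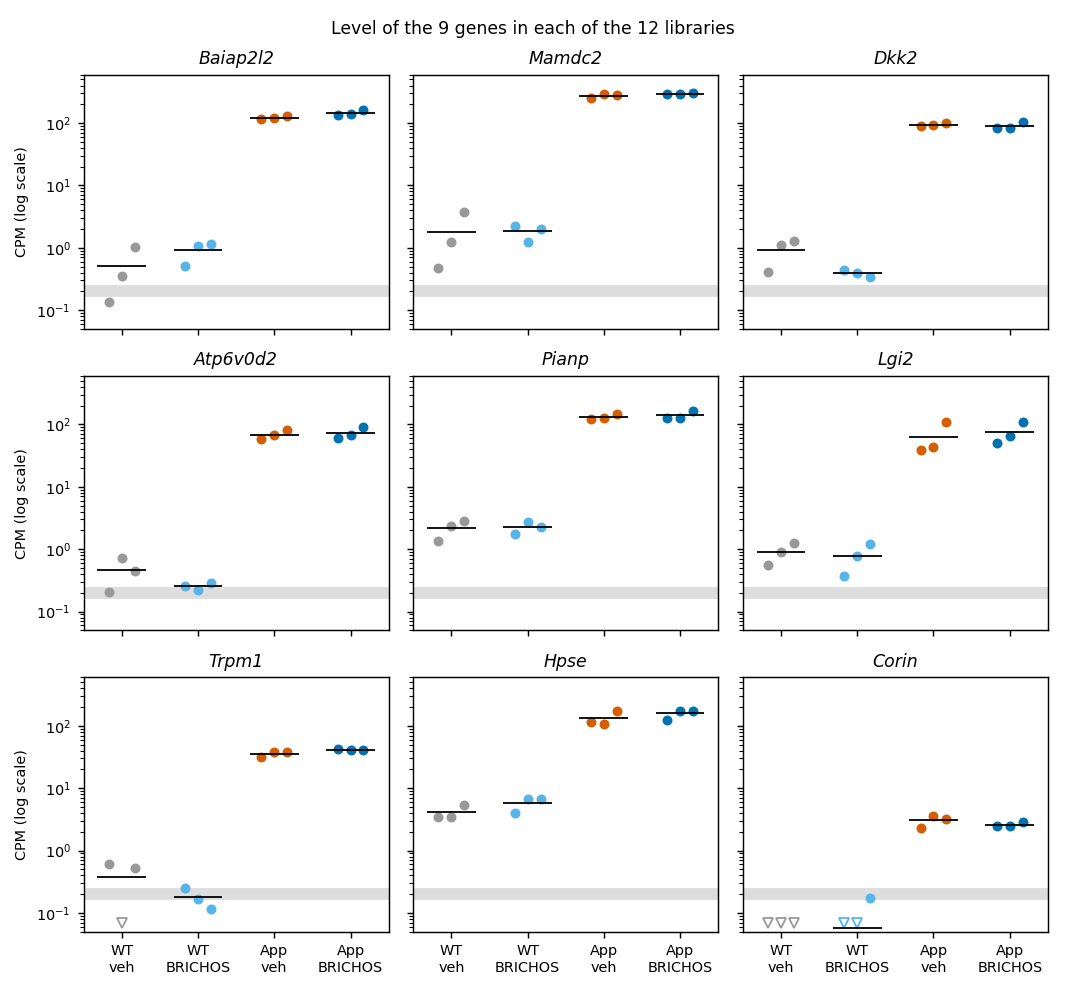
Level of each of the 9 genes in CPM on a log axis in the 4 groups, with a point for each of the 3 mice of a group and a line at the group mean. Open triangles stand for 0 counts, and the grey band covers the levels that 3 counts give in the 12 libraries. Each App mouse lies above all 6 WT mice for all 9 genes. Treated and veh-treated App mice lie close together on this scale. WT mice, with their low counts, spread more widely, for Baiap2l2 from 0.137 to 1.14 CPM.

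For all 9 genes the lowest of the 6 App mice was above the highest of the 6 WT mice, by a factor of 13.6 for Corin to 101.5 for Baiap2l2. The genes had been chosen for this difference, and no test was made of it. Among all tested genes, 25.5% were higher without overlap in veh-treated App than in veh-treated WT mice and 25.3% in the treated mice. The fitted log2 fold change between veh-treated App and WT mice was 5.0 to 7.93 over the 8 genes other than Corin, with a median of 6.63. With Corin at the bound that its absence from the veh-treated WT libraries allows, the median of the 9 was 6.61. In the treated mice the same 8 genes differed by 4.75 to 8.14 on the log2 scale. The median over all 15425 tested genes was -0.02 and -0.04 in these comparisons.

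The level left in WT mice was a small share of that in App mice. The mean of veh-treated WT mice was 3.14% of that of veh-treated App mice for Hpse, 1.66% for Pianp, 1.41% for Lgi2, 1.06% for Trpm1, 0.992% for Dkk2, 0.662% for Mamdc2, 0.659% for Atp6v0d2 and 0.42% for Baiap2l2. Corin had no count in those WT mice. In treated mice the share was again highest for Hpse (3.69%), while the lowest was that of Atp6v0d2 (0.344%), and Trpm1 (0.429%) and Dkk2 (0.441%) were below Baiap2l2 (0.621%), so the order of the low shares was not the same under both treatments. For 12 established markers of disease-associated microglia this share was between 0.773% for Gpnmb and 36.3% for Trem2, with Cst7 at 0.901%.

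Per length of exon, a scale on which genes can be compared with each other, Mamdc2 was highest in veh-treated App mice, at a mean of 79.3 CPM per kb. Pianp, Baiap2l2 and Hpse followed with 46.4, 44.7 and 37.4 CPM per kb. Between mice, Pianp overlapped with Baiap2l2 and Baiap2l2 with Hpse. Dkk2 and Atp6v0d2 had nearly the same level, 25.4 CPM per kb each. Lgi2 (9.76), Trpm1 (2.43) and Corin (0.563 CPM per kb) were lower and did not overlap with their neighbours in the order. In App mice the level of Mamdc2 exceeded that of 96.6% of the tested genes, Trpm1 that of 39.9% and Corin that of 17.7%. In veh-treated WT mice Mamdc2 exceeded 17.5% and Hpse, the highest of the 9, exceeded 27.8%. Trpm1 and Corin thus combined a low level with a high fold change.

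Dkk2 encodes dickkopf 2, a secreted protein that binds the Wnt co-receptors Lrp5 and Lrp6 and, with Kremen proteins, modulates Wnt signalling. It lies on mouse chromosome 3 at chr3:132085292-132180304 (GRCm38, plus strand). Veh-treated WT mice had 0.411, 1.13 and 1.27 CPM, treated WT mice 0.441, 0.394 and 0.343 CPM, veh-treated App mice 90.4, 91.9 and 100.3 CPM, and treated App mice 82.4, 82.7 and 102.3 CPM. The spread between App mice was small, with an SD of 5.36 CPM in the veh-treated and 11.4 CPM in the treated group, and their ranges overlapped. The 250 bases before the RefSeq start of Dkk2 (chr3:132085042-132085291, GRCm38.p6, plus strand) are given because they hold the letters TATAAA, shown in capitals, which begin 32 bases before the start. On either strand 12.4% of 32851 RefSeq promoters hold these letters in the same window.
Dkk2: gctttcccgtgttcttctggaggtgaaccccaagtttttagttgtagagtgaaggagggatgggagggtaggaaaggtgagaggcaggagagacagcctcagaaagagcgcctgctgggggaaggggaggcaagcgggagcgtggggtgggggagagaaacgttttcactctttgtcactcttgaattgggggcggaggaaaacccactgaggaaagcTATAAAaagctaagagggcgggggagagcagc

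Of 17 listed genes of the Wnt pathway, receptors, targets and other dickkopf genes, 11 were tested, of which 2 were higher and 3 lower in veh-treated App mice, where 20.1% of all tested genes were higher and 16.9% lower at an adjusted p-value under 0.05 (edgeR's quasi-likelihood test, Benjamini-Hochberg). Dkk3, the tested paralog, was raised from 6.98 ± 1.30 to 44.1 ± 24.4 CPM (SD, n = 3; log2 fold change 2.66, SE 0.49, edgeR adjusted p = 0.00145). Notum, a secreted Wnt deacylase and target of the pathway, was lowered (log2 fold change -1.03, SE 0.23, edgeR adjusted p = 0.00507). With the summed level of the astrocyte markers as a covariate the difference was -0.02 for Dkk3 (edgeR adjusted p = 0.958) and -1.26 for Notum (edgeR adjusted p = 0.11). That level did not overlap between veh-treated WT (535 to 774 CPM) and App mice (1480 to 4573 CPM), so strain and covariate are hard to separate. Values with the covariate, here and below, do not show which cells a difference comes from. In that fit 13.1% of all tested genes were called between the veh-treated strains, against 37% without it.

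Mamdc2 encodes a secreted proteoglycan built of MAM domains, modules of adhesion proteins and receptor phosphatases (chr19:23302609-23448442, GRCm38, minus strand). It had the highest count of the 9 genes. Its level was 0.479, 1.25 and 3.73 CPM in veh-treated WT, 2.27, 1.24 and 2.0 CPM in treated WT, 251, 292 and 279.9 CPM in veh-treated App and 288, 290.1 and 306 CPM in treated App mice. The 3 veh-treated WT mice spanned a wider relative range than the 3 App mice, and without the WT mouse with 3.73 CPM the log2 fold change between veh-treated strains was 8.26 in place of 7.28. Of 14 listed genes with MAM domains 11 were tested. In veh-treated App mice 5 of them were higher and 2 lower, against 20.1% and 16.9% of all tested genes. The paralogs Mamdc4, Mdga1 and Mdga2 did not pass the test, with log2 fold changes of -0.04, -0.20 and 0.29. Nrp1, the semaphorin and VEGF co-receptor, rose from 128.6 ± 8.76 to 354 ± 19.0 CPM (SD, n = 3; log2 fold change 1.46, SE 0.09, edgeR adjusted p = 2.19e-07). The receptor phosphatases Ptpru and Ptprt rose by 1.05 (edgeR adjusted p = 0.00266) and 1.97 on the log2 scale (edgeR adjusted p = 0.00612). Nrp1 kept a log2 fold change of 1.48 with the astrocyte covariate (edgeR adjusted p = 0.000115), whereas that of Ptprt was -0.40 (edgeR adjusted p = 0.468) and that of Ptpru 0.83 (edgeR adjusted p = 0.186).

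Lgi2 encodes a secreted leucine-rich repeat protein of the LGI family, which binds ADAM22 and ADAM23 at synapses (chr5:52533517-52566462, GRCm38, minus strand). Veh-treated WT mice had 0.548, 0.89 and 1.27 CPM and treated WT mice 0.378, 0.788 and 1.20 CPM. In App mice the level was 38.7, 44.2 and 108 CPM in the veh-treated group and 50.5, 64.6 and 111 CPM in the treated group. Lgi2 was the most variable of the 9 among App mice given veh, with a coefficient of variation of 60.7%, since mouse 3 had more than the other two together, and without that mouse the log2 fold change between veh-treated strains was 5.52 in place of 6.14. Of the 3 paralogs and 3 ADAM receptors, all tested, Lgi4 and Adam23 were higher in veh-treated App mice, by 1.22 (edgeR adjusted p = 0.00937) and 1.46 (edgeR adjusted p = 0.0212) on the log2 scale. Lgi1 and Lgi3 did not pass the test (log2 fold changes 0.40 and -0.81). The differences of Lgi4 and Adam23 were -0.46 and -0.69 with the astrocyte covariate, and neither passed the test (edgeR adjusted p = 0.0997 and 0.298).

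Hpse encodes heparanase, the endoglucuronidase that cleaves heparan sulfate chains of proteoglycans (chr5:100679484-100719716, GRCm38, minus strand). It was the member with the most RNA left in WT mice, at 3.49, 3.44 and 5.44 CPM in the veh-treated and 4.03, 6.81 and 6.75 CPM in the treated group. Veh-treated App mice had 115, 105 and 174 CPM and treated App mice 126, 174 and 176 CPM. These groups overlapped within each strain, and mouse 3 of the veh-treated App group again had the highest level of its group.

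Genes of heparan sulfate metabolism moved with the genotype in part. Of 31 listed genes 29 were tested, 10 were higher, 5 were lower and 14 did not pass the test. The share higher was 34.5%, against 20.1% of all tested genes, and the share lower 17.2%, against 16.9%. Sulf2, an extracellular sulfatase that trims heparan sulfate, rose from 37.6 ± 8.23 to 169 ± 7.77 CPM (SD, n = 3; log2 fold change 2.17, SE 0.13, edgeR adjusted p = 2.31e-07). Sdc3, a cell-surface proteoglycan, rose by 1.40 (edgeR adjusted p = 2.45e-07), and Naglu, a lysosomal enzyme that degrades heparan sulfate, by 1.30 on the log2 scale (edgeR adjusted p = 5.78e-07). By role, 4 of 7 genes of breakdown were higher and 3 lower, and of 8 tested genes of synthesis 2 were higher and 1 lower. In the fit with the astrocyte covariate 9 of the 29 passed, against 13.1% of all tested genes. Among them were Sulf2 at 2.17 (edgeR adjusted p = 9.11e-05), Sdc3 at 1.41 (edgeR adjusted p = 0.000137) and Naglu at 1.53 (edgeR adjusted p = 3.57e-05).

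Pianp encodes a membrane glycoprotein that is a ligand of the inhibitory myeloid receptor PILRα and binds GABA-B receptors (chr6:124996694-125003096, GRCm38, plus strand). Its level was 1.37, 2.37 and 2.83 CPM in veh-treated WT and 1.76, 2.76 and 2.23 CPM in treated WT mice. It reached 123, 125 and 148 CPM in veh-treated App and 128.5, 128.5 and 166 CPM in treated App mice. Of the 6 tested relatives, which included PILR and GABA-B receptor genes, Gabbr2 passed the test (log2 fold change 1.86, SE 0.66, edgeR adjusted p = 0.0442), and its value was -1.54 with the astrocyte covariate (edgeR adjusted p = 0.13). The paralog Ajap1, at 0.764 CPM in veh-treated WT mice, did not pass (log2 fold change -1.07, edgeR adjusted p = 0.112). RefSeq places 3 starts in Pianp. The 250 bases before one of the inner starts (chr6:124998187-124998436, GRCm38.p6, plus strand) are shown because they hold ACTTCCT, the reverse complement of AGGAAGT, in capitals. These letters were searched as a core of sites bound by PU.1, the factor that specifies macrophages and microglia, and 7.69% of all promoters hold them on either strand.
Pianp: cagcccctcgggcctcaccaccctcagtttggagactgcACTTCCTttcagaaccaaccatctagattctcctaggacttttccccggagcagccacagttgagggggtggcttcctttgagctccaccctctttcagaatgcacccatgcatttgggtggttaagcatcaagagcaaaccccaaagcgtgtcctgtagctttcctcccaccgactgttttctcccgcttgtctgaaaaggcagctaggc

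Trpm1 encodes a cation channel known from retinal bipolar cells and melanocytes, whose mouse gene also hosts the microRNA gene Mir211 (chr7:64153835-64269775, GRCm38, plus strand). Veh-treated WT mice had 9, 0 and 7 counts and treated WT mice 4, 3 and 2 counts. Veh-treated App mice had 31.3, 37.7 and 38.6 CPM and treated App mice 43.3, 41.2 and 40.3 CPM, so the 3 treated mice lay above the 3 veh-treated ones. The log2 fold change between veh-treated strains was 6.61, and it was 7.21 without the WT mouse with 9 counts and 5.95 without the one with 0. With 14746 bases of annotated exon, Trpm1 is the longest of the 9, and its level per kb was second lowest. Of 12 listed relatives 7 were tested, 1 of them higher and 2 lower, against 20.1% and 16.9% of all tested genes. Trpm6, a magnesium-permeable channel, rose by 2.44 on the log2 scale (SE 0.39, edgeR adjusted p = 0.000541), Trpm2 and Trpm4 fell by 0.54 (edgeR adjusted p = 3.35e-05) and 0.35 (edgeR adjusted p = 0.00709), and Trpm3 and Trpm7 did not pass the test (-0.18 and 0.05). With the astrocyte covariate Trpm6 (3.21, edgeR adjusted p = 0.00502) and Trpm2 (-0.37, edgeR adjusted p = 0.0321) passed the test and Trpm4 did not (-0.33, edgeR adjusted p = 0.222).

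RefSeq gives Trpm1 2 starts, and the bases before each hold a variant of the E-box, the kind of site bound by factors of the MITF and TFE family. The first window (chr7:64153585-64153834, GRCm38.p6, plus strand) has CATGTG, the reverse complement of CACATG, 141 bases before the start. The second (chr7:64185209-64185380, plus strand), cut to the 172 bases before the first annotated exon, has CACGTG, 229 bases before its start. Both are in capitals below. CACATG or its complement occurs in 12.3% of all promoters and CACGTG in 6.02%.
Trpm1 first start: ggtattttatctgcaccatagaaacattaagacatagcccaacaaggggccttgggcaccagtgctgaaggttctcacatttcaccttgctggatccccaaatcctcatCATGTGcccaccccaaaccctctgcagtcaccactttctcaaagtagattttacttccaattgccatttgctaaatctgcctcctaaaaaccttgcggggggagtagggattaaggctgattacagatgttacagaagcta
Trpm1 second start: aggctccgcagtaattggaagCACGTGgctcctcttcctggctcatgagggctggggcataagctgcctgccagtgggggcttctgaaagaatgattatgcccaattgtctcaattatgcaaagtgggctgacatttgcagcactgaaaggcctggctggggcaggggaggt
The 6 genes with a RefSeq promoter entry (Dkk2, Lgi2, Corin, Hpse, Pianp and Trpm1) have 9 windows in all, and no motif occurred in more than 1 of the genes. TGANTCA, the AP-1 site, occurred in none of them and in 6.75% of all promoters. Lgi2 had the window richest in G and C, at 72.4% against a median of 52.4% over all promoters, with 21 CpG against a median of 6. Of the 250 bases of this window 156 lie in annotated exon, and the values include them.

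Corin encodes a membrane-bound serine protease that activates natriuretic peptides, best known from the heart (chr5:72300025-72504473, GRCm38, minus strand). It was the rarest of the 9. All 3 veh-treated WT mice had 0 counts, treated WT mice had 0, 0 and 3 counts, veh-treated App mice had 36, 55 and 43 counts and treated App mice 38, 39 and 38 counts. The mean of 3.04 ± 0.65 CPM (SD, n = 3) in veh-treated App mice was at least 15.04-fold higher than the level of 3 counts per library in the veh-treated WT mice. In treated mice the summed counts of 115 and 3 give a ratio of 44.2, with an exact 95% interval of 14.7 to 217 that covers counting error only. None of the 3 natriuretic peptide genes, the substrates, passed the filter on low counts. Of the 5 other listed genes, receptors and further activating proteases, 2 were higher in veh-treated App mice and none lower (20.1% and 16.9% of all tested genes). None of the 5 passed the test with the astrocyte covariate (13.1% of all tested genes).

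Atp6v0d2 encodes the d2 subunit of the membrane sector of the V-ATPase, the proton pump that acidifies lysosomes, and is the isoform typical of osteoclasts (chr4:19876841-19922605, GRCm38, minus strand). Veh-treated WT mice had 3, 12 and 6 counts and treated WT mice 4, 4 and 5 counts. The level was 58.3, 67.5 and 81.1 CPM in veh-treated App and 61.6, 68.6 and 91.4 CPM in treated App mice. Its paralog Atp6v0d1, the ubiquitous isoform, was at 98.1 ± 2.43 CPM in veh-treated WT and 132.1 ± 7.73 CPM in veh-treated App mice (SD, n = 3; log2 fold change 0.43, SE 0.05, edgeR adjusted p = 3.94e-05). Per length of exon, Atp6v0d2 made up 0.307 ± 0.176% of the d subunit RNA in veh-treated WT, 0.165 ± 0.020% in treated WT, 25.6 ± 3.73% in veh-treated App and 26.4 ± 4.14% in treated App mice (SD, n = 3). The lowest App mouse had 22.9% and the highest WT mouse 0.489%. The d subunit RNA of App microglia was thus of mixed isoforms, and that of WT microglia was nearly all Atp6v0d1.

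**Figure D2:**
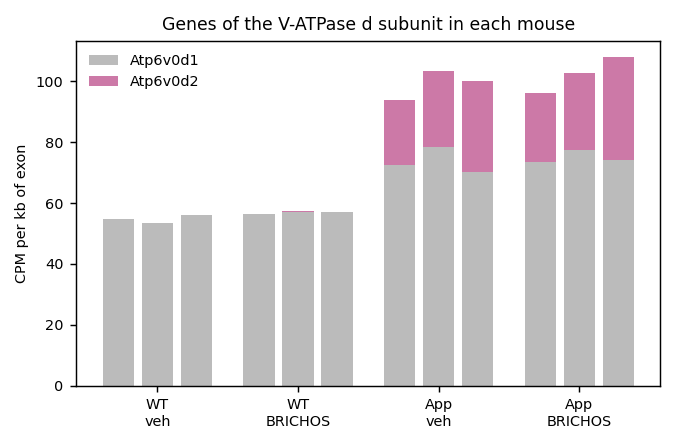
Level of Atp6v0d1 (grey) and Atp6v0d2 (pink) in CPM per kb of exon, stacked in 1 bar for each of the 12 mice. Atp6v0d2 is not visible at this scale in the 6 WT mice and makes up 22.9% to 31.2% of the bar in the 6 App mice, where Atp6v0d1 is also higher.

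The other genes of the proton pump had smaller fold changes. Of the 24 listed V-ATPase genes 19 were tested, 14 were higher and 2 were lower in veh-treated App mice, a share of 73.7% higher against 20.1% of all tested genes. Their median log2 fold change was 0.39, and the largest was that of Atp6v1a, the catalytic subunit, from 99.4 ± 4.96 to 201 ± 8.89 CPM (SD, n = 3; log2 fold change 1.02, SE 0.06, edgeR adjusted p = 2.01e-07). With the astrocyte covariate 10 of the 19 passed, against 13.1% of all tested genes. Atp6v1a (1.10, edgeR adjusted p = 7.13e-05) and Atp6v0d1 (0.41, edgeR adjusted p = 0.0157) were among them. Of 13 listed osteoclast genes, which accompany Atp6v0d2 in bone, 10 were tested, 2 were higher (20%, against 20.1% of all tested genes), 4 were lower and 4 did not pass the test, and 2 were called with the astrocyte covariate. Dcstamp, which like Atp6v0d2 is required for fusion of osteoclast precursors, rose from 0.521 ± 0.440 to 20.2 ± 1.38 CPM (SD, n = 3; log2 fold change 5.27, SE 0.35, edgeR adjusted p = 4.36e-07), and it had the largest change of all 115 tested relatives. The bone-resorbing enzymes Mmp9 and Ctsk were lower, by -1.80 (edgeR adjusted p = 0.00271) and -1.06 on the log2 scale (edgeR adjusted p = 0.0356). With the astrocyte covariate Dcstamp was at 5.50 (edgeR adjusted p = 4.32e-05), and Mmp9 (-2.12) and Ctsk (-1.10) did not pass the test (edgeR adjusted p = 0.0659 and 0.341). Mmp9 is also abundant in neutrophils, whose summed markers were lower in App mice, and their part in its difference was not tested.

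Baiap2l2 encodes an I-BAR domain protein of the IRSp53 family, which binds phosphoinositides and shapes membranes together with actin (chr15:79258195-79285537, GRCm38, minus strand). Its level was 0.137, 0.356 and 1.04 CPM in veh-treated WT and 0.504, 1.07 and 1.14 CPM in treated WT mice. It was 116, 122 and 128 CPM in veh-treated App and 137, 142 and 159.5 CPM in treated App mice. The highest value of the veh-treated App group was below the lowest of the treated group. Without the veh-treated WT mouse with 1.04 CPM the log2 fold change between veh-treated strains was 8.86 in place of 7.93. Of 12 listed paralogs and partners 11 were tested, 1 was higher and 3 were lower, against 20.1% and 16.9% of all tested genes. The paralogs Baiap2 (0.38, edgeR adjusted p = 0.0526) and Baiap2l1 (0.63, edgeR adjusted p = 0.131) did not pass the test, Mtss1 was lower by -1.34 (edgeR adjusted p = 5.77e-08) and Mtss1l higher by 0.89 on the log2 scale (edgeR adjusted p = 0.047). Mtss1 was at -1.40 with the astrocyte covariate (edgeR adjusted p = 4.33e-05), and Mtss1l turned to -0.84 (edgeR adjusted p = 0.00627).

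Over all families, 143 relatives were listed and 115 tested. Of these 40 were higher (34.8%, against 20.1% of all tested genes) and 21 lower (18.3%, against 16.9%) in veh-treated App mice. Of 18 tested paralogs 5 were higher and 3 lower, with a median log2 fold change of 0.17. The largest difference of a paralog, 2.66 for Dkk3, was smaller than that of any of the 8 genes with counts in veh-treated WT mice. These genes had been picked for a large difference, so this order follows from the choice and is no result. The astrocyte markers moved with the same comparison, 7 of 8 being higher. With their summed level as a covariate, an alternative chosen after the data were seen, 29 relatives passed the test, of which 25 were also called without it in the same direction. Calls were fewer over the whole table too, at 13.1% of all tested genes in place of 37%. The 8 described genes other than Corin then had a median log2 fold change of 7.07 in place of 6.63. Lgi2 and Hpse were at 7.37 and 5.71 in place of 6.14 and 5.0.

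**Figure D3:**
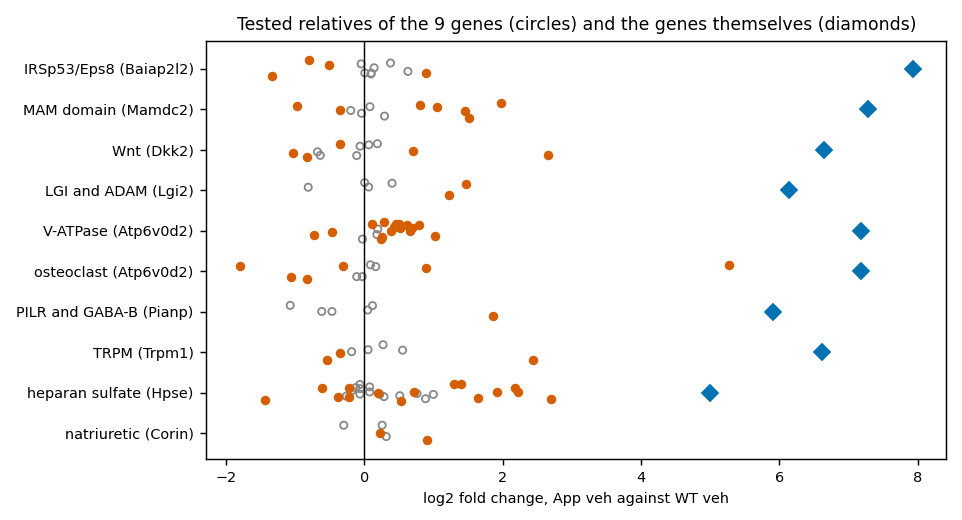
Log2 fold change between veh-treated App and veh-treated WT mice for the 115 tested relatives, by family, with the 8 described genes other than Corin as diamonds. Filled circles passed edgeR's test at an adjusted p-value under 0.05 and open circles did not. The relatives lie between -1.80 and 2.70 except Dcstamp at 5.27, and the diamonds, genes chosen for a large difference, lie between 5.0 and 7.93.

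The genes beside the 9 on the chromosome were also compared. Of the 18 nearest protein-coding neighbours, 1 on each side of each gene, 16 were tested. In veh-treated App mice 5 were higher and 2 lower, where 20.1% and 16.9% of all tested genes were, and their median log2 fold change was 0.04. Pla2g6, a phospholipase gene 691 bases from Baiap2l2 on the same strand, rose from 10.2 to 20.1 CPM (log2 fold change 0.97, SE 0.11, edgeR adjusted p = 2.89e-05). Gm49486, 1521 bases from the other end of Baiap2l2 on the opposite strand, had a log2 fold change of 3.33 (edgeR adjusted p = 0.00785) on at most 14 counts. Ttpa beside Atp6v0d2 (1.46, edgeR adjusted p = 0.0325), Mtmr10 beside Trpm1 (0.49, edgeR adjusted p = 0.00184) and Cops7a beside Pianp (0.24, edgeR adjusted p = 0.0103) were higher. Commd8 beside Corin (-0.53, edgeR adjusted p = 0.000219) and Zfp384 beside Pianp (-0.33, edgeR adjusted p = 0.000253) were lower. With the astrocyte covariate 2 of these 7 passed the test, Pla2g6 (0.69, edgeR adjusted p = 0.0221) and Zfp384 (-0.33, edgeR adjusted p = 0.0462). That fit called 13.1% of all tested genes in place of 37%. Genes that overlap Corin (5), Trpm1 (4), Lgi2 (2) and Mamdc2 (2) had at most 3 counts in any library. Mir211 inside Trpm1 had at most 2, in libraries that are not made to capture microRNAs.

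Whether rh Bri2 BRICHOS R221E changed the 9 genes is the question that their choice leaves to a test, although the veh-treated App mice also stand in the comparison by which they were chosen. None of the 9 passed edgeR's test between treated and veh-treated App mice, at the adjusted threshold (0.00648% of all tested genes) or at an unadjusted p-value under 0.05 (10.8%). DESeq2's Wald test called none either, with no adjusted value for Corin (0.913% of the genes it tested). The unadjusted result of edgeR depended on the fit. With only the App groups 2 of the 9 passed that threshold, without veh-treated mouse 3 also 2, and with a replicate block 1. The share of all genes under it in these fits was not counted. None of the 9 was called there at the adjusted threshold (0%, 1.02% and 0% of all tested genes). In the fit over all 12 libraries the log2 fold changes were small, from -0.22 for Corin to 0.28 for Hpse. Their median was 0.10 against 0.01 over all tested genes. Of the 9 genes 7 were above and 2 below 0, where 52.0% of all tested genes were above. The 9 genes come from the same libraries, so their directions are not independent. These directions depended on the fit. With the astrocyte covariate only Baiap2l2 (0.19) and Trpm1 (0.12) were above 0, Hpse was at -0.14 and Lgi2 was lowest at -0.42. None of the 9 genes was called in that fit, where 0% of all tested genes were.

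The intervals of these differences are given as ratios and rest on a spread shared with the WT groups. With only the App groups in the fit the SE (log2 scale) was 0.070 in place of 0.234 for Mamdc2. It was 0.074 in place of 0.169 for Baiap2l2 and 0.091 in place of 0.222 for Trpm1. For Lgi2 (0.438 in place of 0.380) and Atp6v0d2 (0.170 in place of 0.167) it was larger. Treated App mice had 0.946 times the Dkk2 level of veh-treated ones (95% interval 0.768 to 1.17), 1.07 times the Pianp level (0.85 to 1.34) and 1.07 times the Atp6v0d2 level (0.83 to 1.38). For Mamdc2 the ratio was 1.07 (0.753 to 1.53), for Trpm1 1.16 (0.827 to 1.62) and for Baiap2l2 1.20 (0.926 to 1.55). Hpse had a ratio of 1.21 (0.872 to 1.68), Lgi2 of 1.18 (0.664 to 2.10) and Corin of 0.856 (0.468 to 1.57).

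**Figure D4:**
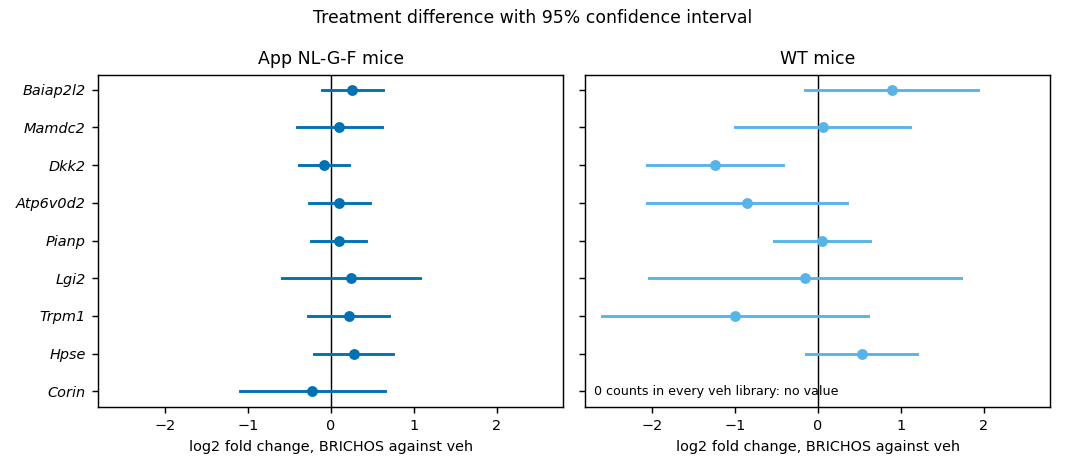
Treatment difference (log2 fold change, rh Bri2 BRICHOS R221E against veh) with its 95% interval for each of the 9 genes, in App mice on the left and in WT mice on the right. The intervals in App mice all include 0, and in WT mice that of Dkk2 does not (-1.24, unadjusted p = 0.00634 and adjusted p = 0.265 in edgeR). Dkk2 passed the filter on low counts only through the App libraries.

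The treated and veh-treated App mice did not overlap for Baiap2l2 and Trpm1, which were higher in the treated mice, as were 6.37% of all tested genes without overlap (7.09% were lower). Baiap2l2 had the lowest p-value of the 9 (unadjusted p = 0.151 and adjusted p = 0.643 in edgeR), and it passed the unadjusted threshold in DESeq2 (log2 fold change 0.28, unadjusted p = 0.00792 and adjusted p = 0.197). The values of Lgi2 rested on single mice. Without mouse 3 of the veh-treated group its log2 fold change was 0.86 in place of 0.24 (edgeR adjusted p = 0.238, in a fit that called 1.02% of all tested genes), and without mouse 3 of the treated group it was -0.14. Without that treated mouse Atp6v0d2 (-0.08) and Pianp (-0.04) also turned below 0, and none of the 9 genes was called in any of these fits.

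In WT mice low counts limited the comparison, least for Hpse and Pianp, which had 10 or more counts in every library. With only the WT groups 5 of the 9 genes passed the filter on low counts (Baiap2l2, Mamdc2, Pianp, Lgi2 and Hpse). Dkk2, Atp6v0d2, Trpm1 and Corin passed it only through the App libraries, so their p-values in WT mice are no support for a difference. Treated WT mice had 1.04 times the Pianp level of veh-treated ones (95% interval 0.694 to 1.55). None of the 9 genes passed at the adjusted threshold (0% of all tested genes in edgeR), DESeq2 called none (0.529% of the genes it tested), and all 9 overlapped between the groups, where 8.36% of all tested genes were higher and 9.2% lower without overlap. Dkk2 passed the unadjusted threshold in edgeR, as did 11.4% of all tested genes, with 6, 19 and 17 counts in veh-treated and 7, 7 and 6 in treated mice (log2 fold change -1.24, 95% interval -2.05 to -0.43, adjusted p = 0.265). Baiap2l2 had 2, 6 and 14 against 8, 19 and 20 counts (0.89, 95% interval -0.15 to 1.93, adjusted p = 0.514 in edgeR), and without the veh-treated mouse with 14 counts the difference was 1.82 (edgeR adjusted p = 0.0986). In DESeq2 the unadjusted p-value was 0.00217 for Dkk2, 0.0195 for Baiap2l2 and 0.0492 for Hpse. Adjusted, these DESeq2 values were 0.136, 0.376 and 0.517. The share of all genes under the unadjusted threshold in DESeq2 was not counted, so these values have no background beside them. The summed border macrophage markers were at 389 to 460 CPM in veh-treated and 516 to 630 CPM in treated WT mice, and the choroid plexus markers at 859 to 3935 and 3258 to 6775 CPM, and their part in these low counts was not tested.

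Whether the treatment acted differently in App and WT mice was tested as an interaction, which was called for none of the 9 genes (edgeR, 0.00648% of all tested genes, and DESeq2, 1.71% of the genes it tested). Dkk2 passed the unadjusted threshold in edgeR (1.16, 95% interval 0.29 to 2.03, unadjusted p = 0.0134 and adjusted p = 0.238), as did 14.8% of all tested genes. In the average over the strains Baiap2l2 (0.57, unadjusted p = 0.0424 in edgeR) and Dkk2 (-0.66, unadjusted p = 0.00642 in edgeR) passed the unadjusted threshold, as did 7.22% of all tested genes, and none passed the adjusted one (0%) or was called by DESeq2 (0.14% of the genes it tested). These 4 comparisons share their libraries and are not independent of each other. In those that use WT mice, Dkk2, Atp6v0d2, Trpm1 and Corin were tested only because their App libraries passed the filter.

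Mice of the same App group differed in some of the 9 genes, and in some genes of disease-associated microglia with them. Lgi2 was highest in mouse 3 of each group, and so were Spp1, which encodes osteopontin, and Gpnmb, a lysosomal glycoprotein. Spp1 had 1340, 1485 and 3155 CPM in veh-treated and 1564, 2288 and 3244 CPM in treated App mice. Gpnmb had 1131, 1196 and 2131 CPM and 1425, 1848 and 2436 CPM. In the veh-treated group 7 of the 9 genes were highest in mouse 3, as were 36.6% of all tested genes, and in the treated group 8 of 9, as were 31.8%. The labels do not say whether a mouse number means the same across groups. In veh-treated and treated WT mice Lgi2 (1.27 and 1.20 CPM) and Spp1 (48.7 and 28.4 CPM) were also highest in mouse 3. Gpnmb was highest in mouse 3 of the veh-treated (26.9 CPM) and in mouse 1 of the treated WT group (4.72 CPM). The App libraries of mouse 3 had the smallest total counts of their groups, 14463866 and 14461294. Gfap, a marker of reactive astrocytes, had 847, 712 and 324 CPM in the 3 veh-treated App mice, so it was lowest in the mouse with the most Lgi2. This did not hold in treated App mice. There Gfap ran from 130 to 394 CPM, and the lowest value was not in mouse 3, which had the most Lgi2. The part of total counts and of astrocytes in the order of the mice was not tested.

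**Figure D5:**
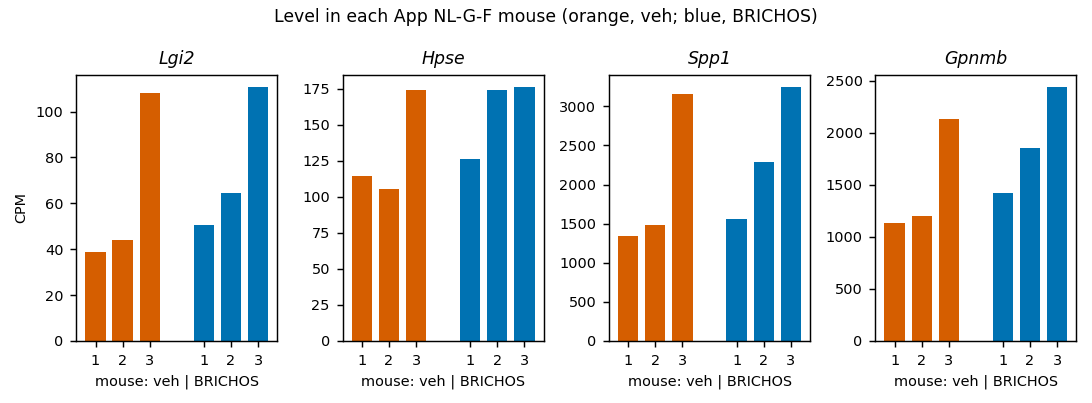
Level of Lgi2, Hpse, Spp1 and Gpnmb in CPM in each of the 3 veh-treated (orange) and 3 treated (blue) App mice. Mouse 3 of the veh-treated group stands above the other mice of its group for all 4 genes, with 108 CPM of Lgi2 against 38.7 and 44.2.

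Over the 6 App mice, the deviations from the group means of log2 CPM were positively correlated for all 36 pairs of the 9 genes, with Pearson's r from 0.064 to 0.999 and a median of 0.664. The 8 pairs with Trpm1 had the lower median of 0.26. Over all 12 libraries, with the low counts of WT mice among them, some pairs were below 0. There r ran from -0.705 for Atp6v0d2 and Trpm1 to 0.875 for Lgi2 and Hpse. The share of positive pairs among other genes was not counted. The points of each pair come from the same libraries and share their normalization, so the values are a description. The genes most like each of the 9 over all 12 libraries had an r of 0.991 to 0.998, set largely by the difference between strains. Lgi2 was most like Spp1 (r = 0.998), Pianp was like Gas2l3, the lipoprotein lipase gene Lpl and the chemokine gene Ccl6, and Hpse like Tnfsf8, Lox and Arhgap24. Dkk2 and Atp6v0d2 were near each other (r = 0.997), Dkk2 also near the adhesion gene Cadm1 and the tetraspanin gene Cd9, and Atp6v0d2 near St8sia6 and Pld3. Baiap2l2 was most like Actr3b, an actin-related gene that was itself raised from 1.24 to 41.5 CPM, followed by Sh3pxd2b and Ephx1. Mamdc2 was most like Nbl1, Ephx1 and Baiap2l2, Trpm1 like Minar1, Fblim1 and Ptchd1, and Corin like Xylt1, Hectd2os and the cathepsin E gene Ctse.

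Among the 12 markers of disease-associated microglia, all of them higher in veh-treated App than in WT mice, the treatment difference in App mice ran from -0.05 for Csf1 to 0.36 for Gpnmb on the log2 scale, and none passed the adjusted threshold in edgeR. Tyrobp passed the unadjusted one (0.21, unadjusted p = 0.0464 and adjusted p = 0.447 in edgeR). Side by side, the 9 genes ran from -0.22 to 0.28, and the comparison with the veh-treated App mice is the same for both lists.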

How the data were processed

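Microglial RNA from the cerebral cortex of 12 mice was sequenced after a stranded mRNA library preparation. The authors trimmed the reads, aligned them to GRCm38 and deposited the raw gene counts, not normalized. The submitters' processing notes name FastQC 0.11.8, STAR 2.6.1d and featureCounts 1.5.1. The strand setting of the counting is not given in the sources used here, so reads of a gene and of an overlapping gene may not be separated. Libraries were grouped by their labels. Of 55487 genes, 26314 had no count and 55227 were matched to GENCODE vM21.

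Genes were kept with filterByExpr of edgeR 4.0.16 (R 4.3.3) at a minimum count of 10, which left 15425. Counts were scaled by TMM and fitted over all 12 libraries with 4 group means, and contrasts were tested with the quasi-likelihood test at 0.05 after Benjamini-Hochberg adjustment over all tested genes. Levels are CPM with TMM factors, and correlations used log2 CPM with a prior count of 2. Libraries of a group differed by more than counting error (chi-square per degree of freedom 5.81 to 34.1). The p-values measure the spread between mice within groups. Each gene had 1 spread shared by all 4 groups of 3, so that of WT mice enters the comparison of App mice. DESeq2 1.42.0 was an alternative. Scripts were tested on simulated data.

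The 9 genes, the 143 relatives, the markers and the motifs were chosen with earlier results of these data known. Named were the 9 genes, the tested paralogs, up to 3 other relatives per family with the lowest adjusted p-value and an absolute log2 fold change of at least 1, the nearest protein-coding genes, the 3 genes most like each of the 9, and markers. Promoters came from the RefSeq annotation of GRCm38.p6, and both strands were searched. Proteins were not analysed here. The alternatives were DESeq2's size factors and Wald test, no filter, at least 10 counts in every library, only the compared groups, a replicate block, the omission of each library and, chosen after the data were seen, an astrocyte covariate.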

Additional observations from a re-analysis of the deposited data

How the results depend on the processing

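None of the 9 genes was called at the adjusted threshold for a treatment comparison under any alternative, including each library left out in turn. The labels do not say whether the replicate numbers pair the mice. The deviations of equally numbered libraries correlated at 0.00978 to 0.178 for the treatment in App and 0.0599 to 0.227 in WT mice. For the veh-treated strains they did so at 0.0564 to 0.174 and for the treated strains at -0.0148 to 0.218. Each comparison had a pair under 0.1, and in none of the 4 did every library correlate best with its own number. Between the veh-treated strains, however, each App library correlated best with the WT library of its number. Such low values over all genes cannot decide whether the numbers pair the mice. In the fit with this number as a replicate block the 9 genes had a median log2 fold change of 6.64 between the veh-treated strains. Corin was then at its fitted value, and the median was 6.63 without it. In that fit 0 of the 9 genes were called for the treatment, and 61 relatives and 6 neighbours were called. The SE of the treatment difference of Lgi2 was 0.11 in place of 0.38 in App and 0.26 in place of 0.86 in WT mice. Requiring 10 counts in every library left 2 of the 9 genes, Hpse and Pianp, with a median of 5.45 between veh-treated and 5.32 between treated strains. With the astrocyte covariate, chosen after the data were seen, the median was 7.37 between veh-treated strains with Corin at its fitted value and 7.07 without Corin, and 29 in place of 61 relatives and 2 in place of 7 neighbours were called. The whole table then held 2025 calls in place of 5710. By share of counts in place of share per length, Atp6v0d2 made up 0.249% of the d subunit RNA in treated WT, 34.2% in veh-treated and 35.2% in treated App mice. With the variance stabilizing transformation 16 of the 27 most similar genes were the same. The difference between veh-treated strains was 5.95 for Trpm1 without WT mouse 2 and 7.21 without WT mouse 1, 5.52 for Lgi2 without App mouse 3, and 8.86 for Baiap2l2 and 8.26 for Mamdc2 without WT mouse 3, and that of Corin in treated mice was 8.31 without the treated WT mouse that held its 3 counts. The treatment difference in WT mice was -0.39 for Trpm1 without veh-treated mouse 1, -1.65 without mouse 2, and 1.03 for Mamdc2 without mouse 3. For Corin and the other genes of lowest counts in WT mice the depth limits what can be seen. The high share of App mouse 3 among the 9 genes was the same with DESeq2's size factors (7 and 8 of 9, where 39.3% and 32.5% of all tested genes were highest there).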
